A study of Mus musculus with 12 samples.

Results

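The 8 genes described here, Numa1, Spag9, Map4k4, Insr, Atp2a2, Clasp1, Picalm and Add1, are genes whose RNA is spliced under the control of Muscleblind-like (MBNL) proteins. They were chosen by name, and all 8 were found among the 23022 genes with deposited values. RNA-seq was done on 12 libraries of B16-F10 cells, a mouse melanoma line, that carry Cas9 and descend from 1 clone selected for a high editing rate. There were 3 libraries for each of 4 conditions. NTC cells carried a control guide, labeled as no template control and called non-targeting control by the study, and DKO cells carried guides against both Mbnl1 and Mbnl2. Cells of each genotype were either untreated or treated with IFNγ (1 ng/mL for 24 h), and all of them carry Cas9 and went through lentiviral transduction and puromycin selection. Each genotype was a polyclonal population, and the study's blots still showed some MBNL protein in such DKO populations, so a DKO library may average edited and unedited cells. By DNA sequencing, the study found indels in most alleles of polyclonal cells edited at Mbnl1 or Mbnl2.

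MBNL proteins bind pre-mRNA at short motifs with a central GC between pyrimidines, and they promote inclusion or skipping of nearby exons depending on where they bind. They also take part in the choice of polyadenylation sites and in RNA localization. In myotonic dystrophy they are sequestered on expanded repeats, and the exons they control revert to a fetal pattern, among them exons of the insulin receptor and of SERCA calcium pumps. The values used here, TPM (a gene's share of all transcripts in a library, per fixed number of transcripts), add up all transcripts of a gene. They show how much RNA a gene yielded, and they do not show which isoform it was.

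In the GENCODE M21 annotation of mouse genome GRCm38, 7 of the 8 genes hold at least 1 annotated cassette exon. That is an internal exon that some protein-coding transcripts contain and others skip. The genes hold 31 such exons in all, with versions of an exon that differ at an end counted separately. Atp2a2 holds none, as its 2 main isoforms differ at the 3′ end. Of the 31 exons, 25 were wholly coding, and all 25 have a length that is a multiple of 3, so inclusion or skipping keeps the reading frame. One cassette exon of 162 nt or less, picked by hand, is printed for each of the other genes, to show what a gene-level value sums over. Only the Insr exon is given here as one known to be controlled by MBNL. Capitals mark the tetramers TGCT and TGCC, and likewise CGCT and CGCC, read on the RNA's own strand, the letters in which MBNL motifs are usually written, with overlapping matches counted separately. Sequences are from the GENCODE M21 transcripts, 5′ to 3′.
Insr, 36 nt, chr8:3181702-3181737, minus strand: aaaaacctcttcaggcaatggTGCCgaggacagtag
Numa1, 42 nt, chr7:102002295-102002336, plus strand: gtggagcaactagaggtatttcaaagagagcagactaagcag
Spag9, 39 nt, chr11:94113263-94113301, plus strand: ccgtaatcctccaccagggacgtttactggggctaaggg
Map4k4, 162 nt, chr1:40001430-40001591, plus strand: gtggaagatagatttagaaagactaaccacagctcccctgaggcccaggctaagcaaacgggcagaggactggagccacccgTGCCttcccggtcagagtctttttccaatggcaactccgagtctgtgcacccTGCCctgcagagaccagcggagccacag
Clasp1, 27 nt, chr1:118523321-118523347, plus strand: gatccagatcTGCTaacccTGCTggtg
Picalm, 24 nt, chr7:90194273-90194296, plus strand: aatggcatgcattttccacaatac
Add1, 37 nt, chr5:34629136-34629172, plus strand: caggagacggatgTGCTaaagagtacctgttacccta

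The 27-nt exon of Clasp1 holds 2 of the tetramers, and 23.9% of the 92 annotated cassette exons of that length hold at least 1. The Insr exon holds 1, beside 37.1% of the 89 exons of 36 nt. The 162-nt exon of Map4k4 holds 2, which is common at this length (87.8% of 41 exons). The Add1 exon holds 1, beside 27.3% of the 22 exons of 37 nt, and its length is not a multiple of 3. The printed exons of Numa1, Spag9 and Picalm hold none. Another cassette exon of Picalm, of 150 nt, holds 5, where 92.7% of the 55 exons of that length hold at least 1. Another of Numa1, of 81 nt, holds 1, beside 63.6% of the 129 exons of that length. All 4 cassette exons of Spag9 hold none. The same is true of the Clasp1 exons of 48 and 3 nt, 1 of its 24-nt exons and the 9-nt exon of Map4k4. MBNL mostly binds in the introns around an exon, and intron sequence was not used here. Long genes with many transcripts are common in the group, though Insr and Atp2a2 have 5 annotated transcripts each. The median summed exon length was 10394 bp against 4546 bp in tested protein-coding genes, the median number of annotated transcripts 13.5 against 5, and a cassette exon was annotated in 87.5% against 35.8%. The genes were chosen for their splicing, so the shares of transcripts and cassette exons follow in part from that choice.

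The genes lie on different chromosomes or far apart. Map4k4 (chr1:39900913-40026310) and Clasp1 (chr1:118389058-118612678) are on the plus strand, as are Numa1 (chr7:101934111-102014964), Picalm (chr7:90130213-90213465), Add1 (chr5:34573664-34632308) and Spag9 (chr11:93996091-94126085). Atp2a2 (chr5:122453513-122502225) and Insr (chr8:3122061-3279617) are on the minus strand. The libraries were unstranded, and 3 of the genes share exon sequence with another gene. Numa1 shares 80 bp with Il18bp, which lies on the other strand and had no value above 5.47 TPM, Atp2a2 shares 83 bp with Gm43361, and Add1 shares 63 bp with Mir7036b. For the exon sequence shared on opposite strands, reads cannot be assigned to one gene.

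Both targeted genes were lower in DKO cells on the log2(TPM + 1) scale. Mbnl1 differed by −0.41 without IFNγ and −0.47 with it, and Mbnl2 by −0.20 and −0.23, with all DKO libraries below all NTC libraries. Mbnl3, which was not targeted, rose by 0.41 and 0.28, the second call being lost with no filter (adjusted p = 0.071) and when any of 9 libraries was left out. Several features of the libraries moved with genotype and bear on every DKO against NTC value given here. The listed genes summed to between 805782 and 827191 TPM in DKO and between 844185 and 874612 TPM in NTC libraries. All 9 melanocyte markers were expressed, and their summed level was 11540 to 12870 TPM in DKO against 17190 to 19260 TPM in NTC libraries. The immune markers Ptprc, Cd3e and Adgre1 were listed at 0 in all libraries, and the 6 immune markers summed to 2.53 to 6.49 TPM in DKO and 1.51 to 2.98 TPM in NTC libraries. Cd68 was the only immune marker high enough to be tested. Its means in NTC and DKO were 1.7 and 2.68 TPM untreated, and 2.08 and 5.58 TPM treated. Cd68 passed as higher in DKO in both comparisons, and as higher with IFNγ within DKO cells. The 4 fibroblast markers summed to 12.7 to 15.9 and 12.6 to 16.5 TPM, with Dpt at 0, and the 6 muscle markers to 2.54 to 4.16 and 1.98 to 3.99 TPM, with Myod1 and Myh1 at 0. The part of these shifts in the results was not tested. In bulk RNA, fewer cells expressing a gene and less RNA per cell cannot be told apart.

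In untreated NTC cells, the 8 genes covered a wide range of levels. Picalm was the highest, at 153 ± 7.26 TPM (SD, n = 3), above 92.8% of the 11663 tested genes. Insr was the lowest at 7.85 TPM, above 26.7% of them. Between them stood Atp2a2 (124 TPM), Map4k4 (72.7 TPM), Add1 (56.8 TPM), Numa1 (39.3 TPM), Spag9 (32.7 TPM) and Clasp1 (21.2 TPM). In this condition no neighbors in the order overlapped between libraries. The libraries of 1 condition were close to each other for these genes. The pooled SD on the log2 scale ran from 0.031 for Map4k4 to 0.077 for Picalm, against a median of 0.091 over tested genes.

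**Figure D1:**
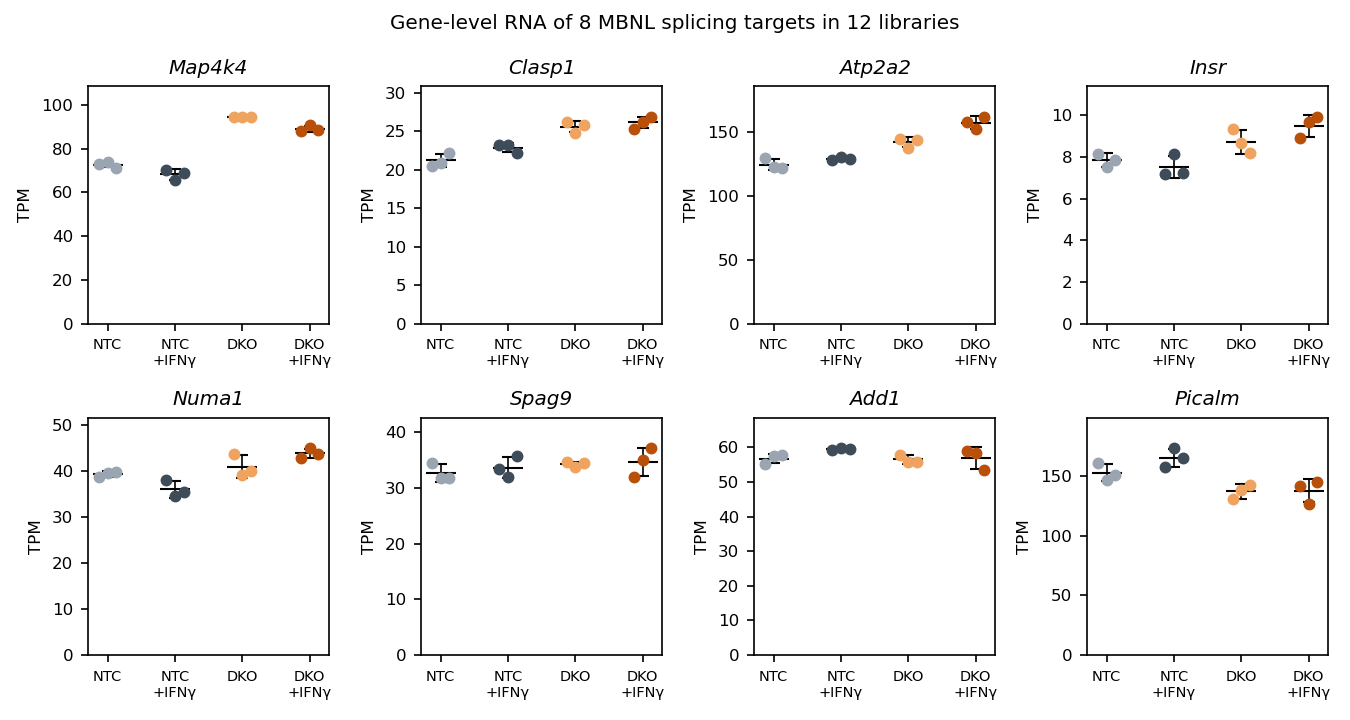
TPM of the 8 genes (vertical axes, each starting at 0) in the 3 libraries of each of the 4 conditions (horizontal axis). Points are libraries, and bars are the mean and SD. Map4k4, Clasp1 and Atp2a2 sit higher in all DKO libraries than in all NTC libraries, Picalm sits lower, and Spag9 overlaps.

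DKO was compared with NTC to ask whether the total RNA of these genes changes when MBNL1 and MBNL2 are targeted. Without IFNγ, 3 of the 8 genes rose and none fell, beside 36.4% of all 11663 tested genes that passed the same test in either direction, 17% of them higher and 19.4% lower. With IFNγ, 5 rose and 1 fell, beside 43.3% of all tested genes, 19.5% higher and 23.9% lower. Here and below, rose and fell mean higher or lower in DKO than in NTC, within untreated or within treated cells. The test was limma on log2(TPM + 1) with Benjamini-Hochberg adjustment over all tested genes and a threshold of 0.05, and all p-values below are from it, two-sided. The median log2 fold change of the 8 genes was 0.10 without IFNγ and 0.23 with it, where the medians of all tested genes were −0.006 and −0.013. The size of change without regard to direction was close to that of other genes when untreated, with a median of 0.144 against 0.151, and above it with IFNγ, 0.27 against 0.176. The labels do not say whether replicates came from separate cultures, so the p-values measure only the spread between these libraries.

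**Figure D2:**
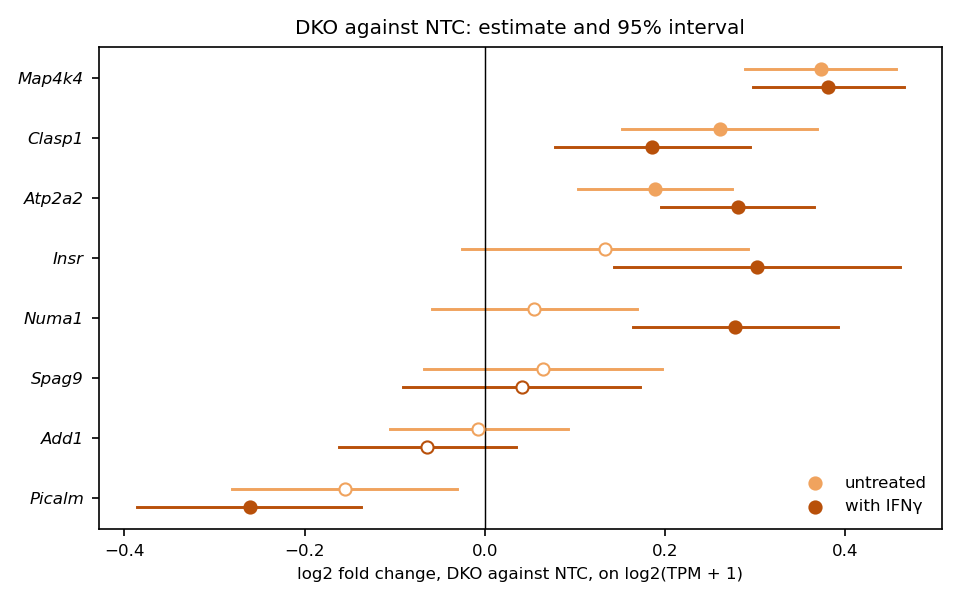
Log2 fold change of DKO against NTC on the log2(TPM + 1) scale (horizontal axis) for each gene, without IFNγ (light) and with it (dark), with 95% confidence intervals as lines. Filled points passed an adjusted p of 0.05. Map4k4, Clasp1 and Atp2a2 were filled on the right in both comparisons, while Picalm was on the left and filled only with IFNγ.

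Map4k4, a Ste20-family kinase that acts upstream of JNK and in cell migration, showed the largest difference of the 8 genes in both comparisons. The untreated NTC libraries gave 72.9, 73.9 and 71.4 TPM, whereas the untreated DKO libraries gave 94.3, 94.5 and 94.5 TPM. In treated cells, the NTC libraries gave 70.1, 65.5 and 69 TPM and the DKO libraries 88.2, 90.8 and 88.4 TPM. All DKO libraries were above all NTC libraries, and the 3 untreated DKO libraries were nearly identical. The mean TPM was 29.9% higher without IFNγ (log2 fold change 0.37, SE 0.0387, adjusted p = 8.91e-06 by limma) and 30.7% higher in treated cells (0.38, adjusted p = 6.26e-06).

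The list around Map4k4 holds kinases of the same family and of the JNK arm, and also Lats1 and Lats2, which belong to neither. Of 10 tested genes, 4 rose and 1 fell without IFNγ, and 3 rose and 3 fell with it. The gene that fell without IFNγ was Lats2, and those that fell with it were Lats1, Map3k7 and Map4k3. For this and each later group of genes, the shares of all tested genes that passed, 36.4% without IFNγ and 43.3% with it, are the background. Tnik, a close relative of Map4k4, rose from 5 ± 0.0963 to 7.43 ± 0.567 TPM (SD, n = 3) without IFNγ, a log2 fold change of 0.49 (limma, adjusted p = 0.000131), and in treated cells by 0.38 (adjusted p = 0.000706). Map4k1 rose by 0.58 with IFNγ, from 2.25 to 3.83 TPM (adjusted p = 0.000681). Map3k11, a kinase that activates the JNK cascade, rose by 0.54 with IFNγ, from 25.1 to 37.1 TPM (adjusted p = 0.000303). Map4k1 and Map3k11 also passed as higher in DKO without IFNγ. Within NTC cells, Map3k11 passed as lower with IFNγ than without it.

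Spag9, also called JIP4, is a scaffold that links JNK and p38 kinases to kinesin and dynein motors. Levels were 34.5, 31.8 and 31.8 TPM in the untreated NTC libraries, next to 34.6, 33.7 and 34.4 TPM in the DKO libraries. With IFNγ the libraries ranged from 31.9 to 35.7 TPM in NTC and from 31.9 to 37 TPM in DKO. The groups overlapped in both comparisons. The log2 fold change was 0.07 without IFNγ, with a 95% interval of −0.067 to 0.197 (adjusted p = 0.44, limma), and 0.04 with it, with an interval of −0.091 to 0.172 (adjusted p = 0.623). A change of the size seen in Map4k4 lies outside both intervals. Around Spag9, of 10 tested JNK and kinesin genes 2 rose and 5 fell without IFNγ, and 1 rose and 2 fell with it. Kif5b, the ubiquitous kinesin heavy chain, fell by 0.36 with IFNγ, from 109 TPM in NTC to 84.9 TPM in DKO (adjusted p = 0.000148). It also passed as lower in DKO without IFNγ, at 96.9 TPM in NTC and 79.7 TPM in DKO. Klc2, a kinesin light chain, fell by 0.40 without IFNγ, from 15.2 to 11.3 TPM (adjusted p = 0.0059). With IFNγ, Klc2 was at 12.6 TPM in NTC and 12 TPM in DKO and did not pass. Mapk9, which encodes JNK2, rose by 0.31 without IFNγ, from 34.5 to 43.1 TPM (adjusted p = 0.00158). It also passed as higher in DKO with IFNγ.

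Insr, the insulin receptor, exists in an isoform without the 36-nt exon, which also binds IGF2 well, and one with it. Without IFNγ, NTC libraries held 8.16, 7.52 and 7.87 TPM, and DKO libraries held 9.32, 8.65 and 8.17 TPM. Treated NTC libraries gave 7.19, 8.13 and 7.25 TPM, and treated DKO libraries gave 8.91, 9.69 and 9.92 TPM. The DKO libraries were above the NTC libraries in both comparisons, although without IFNγ the closest pair, 8.16 and 8.17 TPM, nearly met. Only the treated comparison passed the test, with a mean TPM 26.4% higher and a log2 value of 0.30 (SE 0.0735, limma, adjusted p = 0.00495). The untreated value was 0.13, with a 95% interval of −0.025 to 0.292 (adjusted p = 0.177).

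Of 12 tested genes of the insulin and IGF system, 4 passed without IFNγ, 3 higher and 1 lower, beside 36.4% of all tested genes. With IFNγ 6 passed, 4 higher and 2 lower, beside 43.3%, and 3 passed with the GC and length trend removed together with the replicate block. Igf1r, the receptor for IGF1, went from 2.48 ± 0.0937 to 3.73 ± 0.215 TPM (SD, n = 3) without IFNγ and from 1.93 ± 0.0368 to 3.96 ± 0.313 TPM with it. The 2 log2 fold changes were 0.44 (limma, adjusted p = 0.00124) and 0.76 (adjusted p = 1.46e-05). Irs2, an adaptor that docks on both receptors, rose by 0.49 with IFNγ, from 1.03 to 1.84 TPM (adjusted p = 0.00927). That call was lost with the GC and length trend removed together with a replicate block (0.35, adjusted p = 0.0506). Without IFNγ, Irs2 was at 1.81 TPM in NTC and 2 TPM in DKO and did not pass. Within NTC cells, Irs2 passed as lower with IFNγ than without it. Grb14, which inhibits the insulin receptor, fell by 0.49 without IFNγ, from 2.73 to 1.64 TPM (adjusted p = 0.0185), a call lost when 1 of 3 libraries was left out in turn (untreated NTC replicate 3, or untreated DKO replicate 2 or 3, which gave adjusted p values of 0.0824, 0.0596 and 0.0522). In treated cells, Grb14 was at 2.01 TPM in NTC and 2.14 TPM in DKO.

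Atp2a2 encodes SERCA2, the pump that returns calcium from the cytosol to the endoplasmic reticulum. Untreated NTC libraries gave 129, 122 and 122 TPM, and untreated DKO libraries gave 144, 138 and 144 TPM. Treated NTC libraries gave 128, 130 and 129 TPM, and treated DKO libraries gave 158, 152 and 162 TPM. All DKO libraries were above all NTC libraries. The mean was 14.1% higher without IFNγ (log2 fold change 0.19, SE 0.0395, adjusted p = 0.00216 by limma) and 21.7% higher with it (0.28, adjusted p = 9.45e-05).

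Of the other genes of endoplasmic reticulum calcium stores, 9 passed the filter, and 4 of these rose and none fell in each comparison, beside 36.4% and 43.3% of all tested genes that passed in either direction. At an unadjusted p under 0.05 there were 4 without IFNγ and 7 with it. Itpr1, the channel through which IP3 releases stored calcium, rose most, from 16.4 ± 1.42 to 26 ± 0.893 TPM (SD, n = 3) without IFNγ, a log2 fold change of 0.64 (limma, adjusted p = 6.48e-06). With IFNγ it went from 18 to 25.8 TPM. Stim1, the sensor of store depletion, rose by 0.25 in untreated cells (adjusted p = 0.00576) and by 0.31 in treated cells (adjusted p = 0.00119). The related Stim2 went the other way and did not pass. Its means in NTC and DKO were 15.4 and 14.4 TPM untreated, and 17.1 and 15 TPM treated. In each comparison, 7 of the 9 genes had a log2 fold change above 0. Orai1 and Orai2, the plasma membrane channels that STIM1 opens, rose with IFNγ by 0.58 (adjusted p = 0.00491) and 0.39 (adjusted p = 0.00497). Neither passed without IFNγ. The other SERCA genes, Atp2a1 and Atp2a3, and the SERCA inhibitors Pln and Sln did not pass the filter, with a highest value of 1.27 TPM among them, in Atp2a1. Without untreated NTC replicate 1, 2 genes passed in place of 4 in untreated cells.

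Clasp1 encodes a protein that stabilizes the plus ends of microtubules at kinetochores and the cell cortex. Without IFNγ, NTC libraries held 20.5, 20.9 and 22.2 TPM, and DKO libraries held 26.2, 24.8 and 25.8 TPM. Treated NTC libraries gave 23.2, 23.2 and 22.2 TPM, and treated DKO libraries gave 25.4, 26.3 and 26.9 TPM. The groups did not overlap in either comparison. The mean was 20.7% higher without IFNγ (log2 fold change 0.26, SE 0.0504, adjusted p = 0.00127 by limma) and 14.4% higher with it (0.19, adjusted p = 0.00922). The related Clasp2 was at 22.4 TPM in untreated NTC and 23.7 TPM in untreated DKO, a log2 difference of 0.08 (adjusted p = 0.184).

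Of 12 tested plus-end genes, 4 rose and 3 fell without IFNγ, and 3 rose and 2 fell with it. Phldb1, which encodes LL5α, a cortical partner of CLASP proteins, rose by 0.55 with IFNγ, from 18.2 to 27.1 TPM (adjusted p = 0.000331, limma). Mapre2, which encodes EB2, rose by 0.37 without IFNγ, from 31.7 to 41.2 TPM (adjusted p = 0.000261). Phldb1 also passed without IFNγ and Mapre2 with it, both as higher in DKO. Ckap5, a microtubule polymerase, fell by 0.46 with IFNγ, from 114 TPM in NTC to 82.7 TPM in DKO (adjusted p = 1.7e-05). It also passed as lower in DKO without IFNγ, at 104 TPM in NTC and 79.1 TPM in DKO.

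Numa1 organizes the spindle poles in mitosis and anchors dynein at the cortex. Untreated NTC libraries gave 38.6, 39.5 and 39.7 TPM, and untreated DKO libraries gave 43.8, 39.1 and 39.9 TPM, and these groups overlapped. Treated NTC libraries gave 38, 34.5 and 35.5 TPM, and treated DKO libraries gave 42.9, 44.9 and 43.7 TPM, and these did not overlap. The log2 fold change was 0.06 without IFNγ, with a 95% interval of −0.058 to 0.169 (limma, adjusted p = 0.445), and 0.28 with it (SE 0.0527, adjusted p = 0.000935). With a trend of GC content and gene length removed from each library, the treated value was 0.15 and still passed the test (adjusted p = 0.0169).

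Of 13 tested spindle genes, 2 rose and 3 fell without IFNγ, and 3 rose and 2 fell with it. Tpx2, a factor for spindle assembly, fell by 0.46 with IFNγ, from 121 TPM in NTC to 87.3 TPM in DKO (adjusted p = 7.02e-06, limma). It also passed as lower in DKO without IFNγ, at 107 TPM in NTC and 86.1 TPM in DKO. Gpsm1, a relative of the protein that holds NuMA at the cortex, rose by 0.46 with IFNγ, from 14.5 to 20.2 TPM (adjusted p = 0.000388). It also passed as higher in DKO without IFNγ. Within NTC cells, Tpx2 passed as higher and Gpsm1 as lower with IFNγ than without it. Dctn1, the large subunit of the dynein partner dynactin, fell by 0.30 without IFNγ, from 108 to 87.6 TPM (adjusted p = 0.00214). With IFNγ, Dctn1 was at 94.4 TPM in NTC and 88.3 TPM in DKO and did not pass. The count for this list depended on GC content and length. With that trend removed, 9 of the 13 genes passed in each comparison.

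Picalm encodes a clathrin adaptor that sets the size of endocytic vesicles, and it was the only one of the 8 genes that fell in this test. Without IFNγ, NTC libraries held 161, 147 and 150 TPM, and DKO libraries held 130, 139 and 142 TPM. Treated NTC libraries gave 158, 173 and 165 TPM, and treated DKO libraries gave 141, 127 and 145 TPM. All DKO libraries were below all NTC libraries. The treated difference was −0.26 on the log2 scale (SE 0.0578, adjusted p = 0.00269 by limma), with a mean TPM 165 in NTC and 138 in DKO. The untreated difference was −0.16, with a 95% interval of −0.28 to −0.031, and lay at the threshold (adjusted p = 0.0502). It passed in some alternatives, with adjusted p from 0.0153 to 0.128 over those that kept all libraries or the 6 of the comparison, and in 4 of the 12 fits that left out 1 library: untreated NTC replicate 2 (0.0487), treated NTC replicate 1 (0.0498) and treated DKO replicate 2 (0.0225) or 3 (0.0404). The treated value was −0.17 with the GC and length trend removed (adjusted p = 0.00449) and −0.18 with libraries scaled to the same total (adjusted p = 0.0145).

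Of 13 tested genes of the clathrin coat, none rose and 2 fell without IFNγ, where 36.4% of all tested genes passed, and 1 rose and 4 fell with it, where 43.3% passed, with medians of −0.04 and 0.01 on the log2 scale. At an unadjusted p under 0.05 there were 3 without IFNγ and 8 with it. Fcho1, which helps start clathrin-coated pits, was at 1.48 to 1.5 TPM in untreated NTC and 1.38 to 1.58 TPM in treated NTC libraries. In DKO cells it was listed at 0 in all treated libraries, and at 0 in 2 untreated libraries and 1.46 TPM in the third. Its relative Fcho2 fell by 0.28 with IFNγ, from 20.4 to 16.6 TPM (limma, adjusted p = 0.00174). Without IFNγ, Fcho2 was at 17.2 TPM in NTC and 16.7 TPM in DKO and did not pass. Within NTC cells, Fcho2 passed as higher with IFNγ than without it. Dnm2, the dynamin that cuts vesicles off, rose by 0.15 with IFNγ (adjusted p = 0.0292) and did not pass without it. With the GC and length trend removed, the treated difference of Dnm2 was 0.00224 and the call was lost. That call was also lost with only the 6 libraries of the comparison (adjusted p = 0.0851) and without treated NTC replicate 2 (0.0861) or 3 (0.058) or treated DKO replicate 2 (0.118). Without the third untreated DKO library, no gene of this list passed in untreated cells, in place of 2, and without the third treated DKO library 8 genes passed in place of 5.

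Add1 encodes α-adducin, which caps actin filaments and joins them to spectrin under the membrane. Untreated NTC libraries gave 55.1, 57.5 and 57.7 TPM, and untreated DKO libraries gave 57.9, 55.7 and 55.9 TPM, and these groups overlapped. Treated NTC libraries gave 59.4, 59.7 and 59.5 TPM, and treated DKO libraries gave 59, 58.5 and 53.4 TPM. The treated DKO libraries were all slightly below the NTC libraries, 2 of them by little. The log2 fold change was −0.01 without IFNγ, with a 95% interval of −0.105 to 0.092 (limma, adjusted p = 0.926), and −0.06 with it, with an interval of −0.162 to 0.035 (adjusted p = 0.279). Both changed sign when each library was scaled to the same total, to 0.04 and 0.02, and the treated value was −0.11 and passed the test with the GC and length trend removed (adjusted p = 0.0326). Of 9 tested genes of the spectrin and adducin skeleton, 2 rose and 2 fell in each comparison. Tmod1, which caps the slow-growing ends of actin filaments, rose by 0.43 with IFNγ, from 25.8 to 35 TPM (adjusted p = 0.000113). Without IFNγ, Tmod1 was at 28.1 TPM in NTC and 30.1 TPM in DKO and did not pass. Sptbn1, a β-spectrin, rose by 0.18 with IFNγ, from 60.8 to 69.2 TPM (adjusted p = 0.00613). Epb41, protein 4.1R, fell by 0.19 without IFNγ, from 50.4 to 43.9 TPM (adjusted p = 0.00963). Sptbn1 and Epb41 each passed in the same direction in both comparisons.

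Taking both comparisons side by side, the libraries of the 2 genotypes did not overlap for 5 of the 8 genes without IFNγ, beside 51.6% of all tested genes, and for 7 of 8 with it, beside 49.9%. The opposite differences of Atp2a2 and Picalm changed the order of the 2 highest genes. Picalm was above Atp2a2 in all NTC libraries, where the ratio of Atp2a2 to Picalm ran from 0.754 to 0.833 over 6 libraries. In the 6 DKO libraries the ratio ran from 0.994 to 1.2. In untreated DKO cells the 2 genes overlapped between libraries, at 142 and 137 TPM on average, and with IFNγ Atp2a2 was above Picalm in all 3 libraries. In treated NTC cells Numa1 and Spag9 also overlapped. The other neighbors in the order of levels stayed apart in all 4 conditions, and the order of the remaining genes was the same in each. The summed level of the 8 genes was 500 to 526 TPM in NTC and 533 to 566 TPM in DKO libraries.

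**Figure D3:**
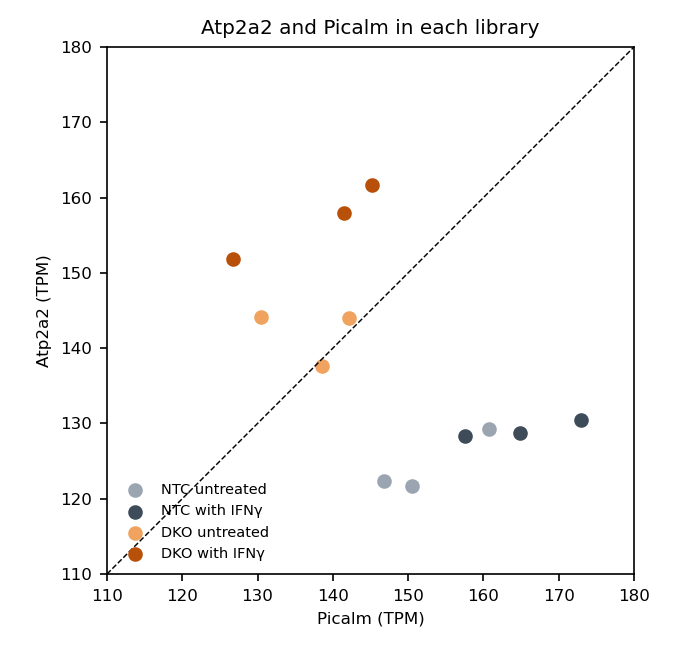
TPM of Atp2a2 (vertical axis) against Picalm (horizontal axis) in the 12 libraries, both axes running from 110 to 180 TPM. The dashed line marks equal levels, and the 6 NTC libraries lie below it, at ratios of 0.754 to 0.833, while 5 of the 6 DKO libraries lie above it and 1 untreated DKO library just below it, at 0.994 to 1.2 in all.

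IFNγ was compared with no treatment within each genotype to ask whether the cytokine itself changes the total RNA of these genes. None of the 8 passed the test with limma in NTC cells, beside 12.1% of all tested genes, and none in DKO cells, beside 0.78%. At an unadjusted p under 0.05 there were 2 genes in NTC and 1 in DKO. In NTC these were Numa1, with a log2 difference of −0.13 (adjusted p = 0.123), and Map4k4, with −0.09 (adjusted p = 0.124). In DKO it was Atp2a2, with 0.15 (adjusted p = 0.165), whose treated libraries were all above the untreated ones.

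The difference between the IFNγ responses of the 2 genotypes was tested directly, and none of the 8 genes passed with limma, beside 0.0343% of all tested genes. At an unadjusted p under 0.05 there was 1, Numa1. Its response was −0.13 in NTC and 0.10 in DKO cells, a difference of 0.22 with a 95% interval of 0.062 to 0.384 (unadjusted p = 0.0102, adjusted p = 0.381). For Insr, which passed in the treated comparison only, the difference was 0.17 (interval −0.055 to 0.393, adjusted p = 0.525). For Picalm it was −0.11 (interval −0.282 to 0.07, adjusted p = 0.605). The larger count with IFNγ than without it, 6 against 3, is therefore not shown to be a difference in response.

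A further 34 genes with splicing known to depend on MBNL were set beside the 8. Of these, 26 passed the filter, and the other 8, among them the muscle genes Ldb3, Tnnt3, Cacna1s and Ryr1, were at most at 1.27 TPM in any library. Without IFNγ, 6 rose and 5 fell, beside 36.4% of all tested genes that passed, and with it, 8 rose and 4 fell, beside 43.3%, with medians of 0.03 and 0.02 on the log2 scale. Vldlr, a lipoprotein receptor, showed the largest drop, from 9.55 ± 1.61 to 5.09 ± 0.654 TPM (SD, n = 3) without IFNγ, a log2 fold change of −0.79 (limma, adjusted p = 8.3e-05), and from 8.44 to 4.7 TPM with it. Bin1, a membrane-bending protein whose splicing is altered in myotonic dystrophy, rose by 0.71 with IFNγ, from 23.5 TPM in NTC to 38.9 TPM in DKO (adjusted p = 1.26e-06). It also passed as higher in DKO without IFNγ, at 26.5 TPM in NTC and 40.6 TPM in DKO. Palm, which encodes the membrane protein paralemmin, rose by 0.72 with IFNγ, from 25.6 TPM in NTC to 42.9 TPM in DKO (adjusted p = 4.4e-06). It also passed as higher in DKO without IFNγ, at 33.8 TPM in NTC and 44.4 TPM in DKO. Within NTC cells, Palm passed as lower with IFNγ than without it. Nfix, a transcription factor, fell by 0.44 without IFNγ, from 3 to 1.95 TPM (adjusted p = 0.00828), and was at 3.05 TPM in both genotypes with it. Mapt, which encodes tau, rose by 0.42 with IFNγ, from 7.48 to 10.4 TPM (adjusted p = 0.00481). Without IFNγ, Mapt was at 9.3 TPM in NTC and 10.15 TPM in DKO and did not pass.

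**Figure D4:**
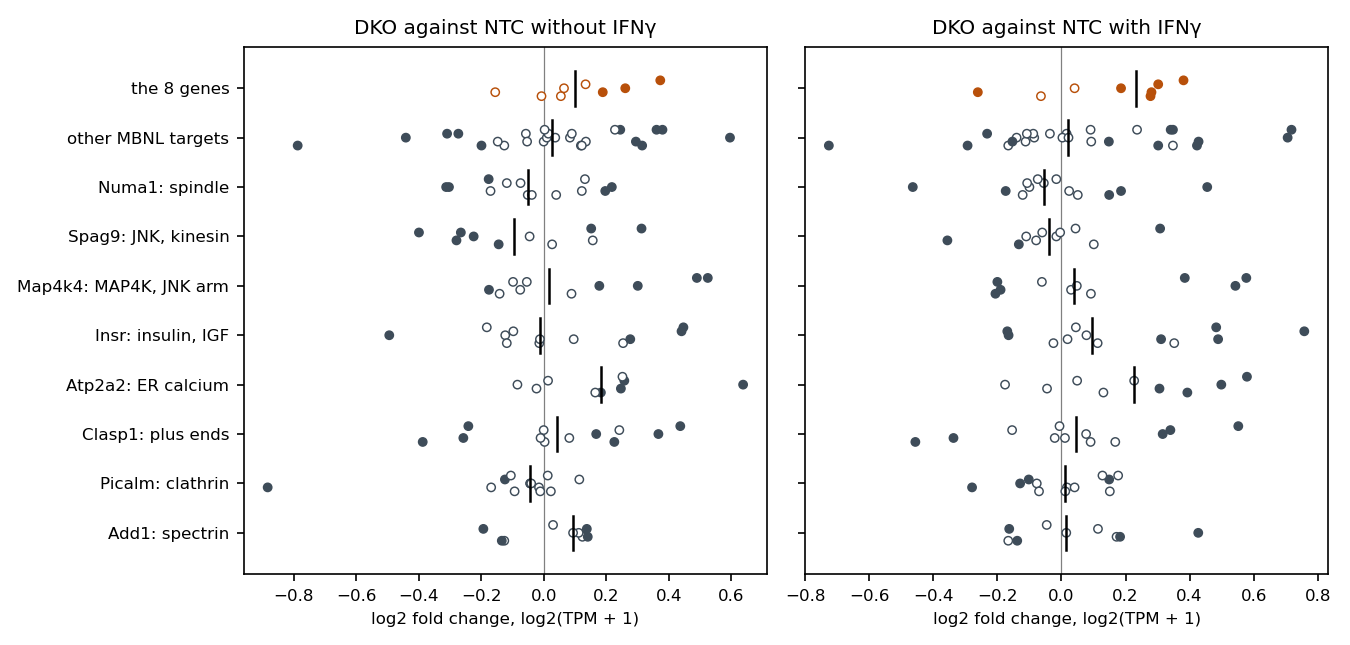
Log2 fold change of DKO against NTC (horizontal axes, on log2(TPM + 1)) for the 8 genes, the other MBNL targets and the genes around each of the 8 (rows), without IFNγ (left) and with it (right). Points are genes, filled where the adjusted p was under 0.05, and vertical bars are medians. The 8 genes have medians of 0.10 and 0.23 and the calcium store genes 0.18 and 0.23, while the other rows have medians within 0.1 of 0. Fcho1 is left out of the right panel because it was listed at 0 in that DKO group.

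The counts of genes around the 8 depended in part on single libraries. Without IFNγ, 4 in place of 7 JNK and kinesin genes passed without NTC replicate 3 or DKO replicate 2 or 3. For the kinases around Map4k4, 3 in place of 5 passed without NTC replicate 1 or 2 or DKO replicate 1. For the spindle genes, 3 in place of 5 passed without replicate 1 of either genotype. For the spectrin genes, 2 in place of 4 passed without NTC replicate 1 or 3 or DKO replicate 3, and 1 passed without DKO replicate 2. For the clathrin genes, 1 in place of 2 passed without NTC replicate 3 or DKO replicate 2. With IFNγ, 2 in place of 5 spindle genes passed without NTC replicate 2 and 3 without DKO replicate 2, and 2 or 3 in place of 5 clathrin genes passed without NTC replicate 2 or 3 or DKO replicate 1 or 2. Also with IFNγ, removal of the GC and length trend gave 8 in place of 3 JNK and kinesin genes, and scaling to the same total gave 8 in place of 5 plus-end genes.

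The gene whose levels followed each of the 8 most closely over the 12 libraries was found by Pearson correlation of log2(TPM + 1). These values describe libraries that share genotype, treatment and scaling. The closest were 9030617O03Rik for Map4k4 (r = 0.992), Tpt1 for Picalm (0.984), Exo1 for Clasp1 (0.965), Bid for Atp2a2 (0.96), Sh3bgrl3 for Numa1 (0.958) and Slc12a2 for Insr (0.955). The closest for Spag9 was Morc2a (0.859) and for Add1 it was Tnip1 (0.84). Map4k4 and Picalm had many close neighbors, with 641 and 443 genes above 0.9, where Spag9 and Add1 had none and Insr had 11. 9030617O03Rik stood at 2.24 TPM in untreated NTC and 5.88 TPM in untreated DKO libraries on average. Tpt1 was lower in DKO, like Picalm, at 2940 TPM in untreated NTC and 2586 TPM in untreated DKO.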

How the data were processed

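Poly(A)-selected, unstranded RNA-seq libraries were processed by the authors with RSEM 1.2.4 calling Bowtie on a merged transcript annotation, with unaligned reads passed to TopHat against GRCm38. They deposited TPM, 1 value per gene and library. TPM keep no read depth and give no isoforms, and the spread between the 3 libraries of a condition gives the precision. The test set for count data was not used.

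From these values, limma 3.58.1 (R 4.3.3) was run on log2(TPM + 1), with 1 mean per condition, all 12 libraries and a prior variance following the mean. Tests in 5 comparisons covered the 11663 of 23022 genes that reached 1 TPM in 3 or more libraries. A fold change on this scale is smaller than the ratio of TPM for low genes. The fit was tested on simulated data. Genes were matched by symbol, and 8 of 170 list genes by Ensembl ID. Exons, lengths and GC content are from GENCODE M21, and cassette exons are those skipped by a junction of another protein-coding transcript. Tables and figures used Python 3.11.15, pandas 2.3.3, numpy 2.4.6 and matplotlib 3.10.9.

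The 8 genes and the lists were chosen with earlier results of these data known. Named are the 8 genes, the Mbnl genes, up to 3 genes per list (6 for other MBNL targets) with the largest change among those past the threshold, and the closest gene by correlation. One gene that this rule names is not reported here. Clasp2, Stim1, Stim2, Cd68, Lats1, Lats2, Map3k7 and Map4k3 were added after their values were seen. Alternatives were a pseudocount of 0.1, no filter, a replicate block, 2 scalings, removal of a GC and length trend (also with the block), a constant prior variance, the 6 libraries of a comparison and each library left out. Splicing was not analysed here.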

Additional observations from a re-analysis of the deposited data

How the results depend on the processing

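The number of the 8 genes that passed stayed within 3 to 4 without IFNγ and 6 to 7 with it over all alternatives, and at 0 for the IFNγ comparisons. Map4k4, Clasp1 and Atp2a2 passed in both comparisons, and Insr, Numa1 and Picalm with IFNγ, under every alternative, left-out libraries included. Values of genes that did not pass changed sign. With library totals made equal, Add1 went to 0.043 without IFNγ and 0.021 with it, and the Spag9 difference in response to 0.011. With median-ratio scaling, Add1 went to 0.0031 without IFNγ, and the IFNγ values in DKO to −0.00773 for Picalm and −0.00403 for Add1. With the GC and length trend removed, with or without the replicate block, IFNγ values went to −0.05 for Spag9 in NTC, and in DKO to −0.014 for Spag9, −0.0068 for Clasp1, −0.022 for Picalm and −0.000489 for Add1, and differences in response to 0.036 for Spag9 and −0.037 for Map4k4. The cause was not tested. With 1 library left out, values that changed sign ranged from −0.028 to 0.00456 for Add1 without IFNγ, −0.00781 to 0.097 for Spag9 with it, −0.00327 to 0.077 for Spag9 under IFNγ in NTC, and in DKO −0.034 to 0.07 for Spag9, −0.032 to 0.065 for Picalm and −0.016 to 0.055 for Add1. Differences in response ranged from −0.073 to 0.032 for Spag9 and −0.02 to 0.029 for Map4k4.

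Same-numbered libraries of different conditions did not deviate together (12 correlations, from −0.179 to 0.119), so the replicate block was no main fit. With the replicate block, 3 and 6 of the 8 genes passed as before, and over all genes 4063 without IFNγ and 4899 with it, in place of 4247 and 5053. The count of all genes changed by IFNγ in NTC, 1411, was 897 with no filter, 737 with a constant prior variance, 576 with the GC and length trend removed and 447 with the block added, and 319 to 2020 with 1 library left out. The 4 genes that differed in response became 2 with the replicate block and 10 with no filter, and 0 to 7 with 1 library left out. Scaling to the same total moved the median of all genes to 0.039 without IFNγ and 0.065 with it. With 3 libraries per condition and no read depth, the 95% intervals of Spag9 and Add1 without IFNγ still reach 0.197 and −0.105 on the log2 scale, and a splicing change that leaves the total unchanged cannot be seen in these values.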
